A study of Mus musculus with 6 samples.

Results

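The 27 genes described here make cholesterol, sense it and dispose of it in epidermal cells. They were chosen by name from a list of pathway enzymes and sterol regulators, and all 27 were found by Ensembl identifier among the 55487 genes listed in each file. RNA came from back skin epidermis of newborn mice at postnatal day 0, loosened with dispase and trypsin into a cell suspension that is not stated to have been sorted. The series compares 3 libraries labelled Control with 3 labelled Znf750 cKO, written Znf750_cKO below. The gene named in the label (mouse symbol Zfp750) codes for a zinc finger protein that regulates transcription as keratinocytes differentiate. The labels give only these names and the age. The strain, the alleles, the driver of the deletion and how many animals a library holds were not given in the sources used here, so p-values measure the spread between these libraries.

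Cholesterol is built from acetyl-CoA through mevalonate, isoprenoid diphosphates and squalene, which is closed into the sterol ring and then trimmed and reduced to cholesterol. When membrane sterol is low, Scap carries the transcription factor precursor encoded by Srebf2 from the endoplasmic reticulum to the Golgi for cleavage, and the freed factor binds sterol regulatory elements (SREs) in promoters of the pathway. When sterol is high, Insig proteins hold Scap back. In epidermis, cholesterol is a main lipid of the stratum corneum beside ceramides and free fatty acids, and part of it is sulfated by Sult2b1 in the upper layers.

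The promoters of the 3 members that changed are shown first, since one of them holds a textbook SRE. They are RefSeq windows (GRCm38.p6) from 250 bases before the start site to 50 bases from it, written 5′ to 3′ along the gene, with matches to TCACNCCAC (SRE) and CCAAT (the box bound by NF-Y, a partner of this factor at sterol genes) in capitals. CCAAT on the opposite strand reads ATTGG. The Hmgcs1 window is chr13:119690101-119690400 on the plus strand, the Mylip window chr13:45389492-45389791 on the plus strand, and the Hsd17b7 window chr1:169969156-169969455 on the minus strand.
Hmgcs1: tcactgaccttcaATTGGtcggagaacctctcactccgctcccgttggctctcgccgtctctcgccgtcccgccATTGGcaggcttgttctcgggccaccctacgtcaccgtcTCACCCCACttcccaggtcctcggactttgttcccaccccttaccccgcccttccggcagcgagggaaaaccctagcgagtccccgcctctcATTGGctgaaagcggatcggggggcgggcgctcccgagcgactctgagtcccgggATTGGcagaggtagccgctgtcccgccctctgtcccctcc
Mylip: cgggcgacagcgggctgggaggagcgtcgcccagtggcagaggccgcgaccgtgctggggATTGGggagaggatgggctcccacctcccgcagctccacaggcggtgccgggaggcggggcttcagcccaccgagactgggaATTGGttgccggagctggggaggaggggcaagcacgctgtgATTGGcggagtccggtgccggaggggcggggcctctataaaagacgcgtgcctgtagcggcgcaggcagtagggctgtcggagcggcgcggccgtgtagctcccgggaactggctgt
Hsd17b7: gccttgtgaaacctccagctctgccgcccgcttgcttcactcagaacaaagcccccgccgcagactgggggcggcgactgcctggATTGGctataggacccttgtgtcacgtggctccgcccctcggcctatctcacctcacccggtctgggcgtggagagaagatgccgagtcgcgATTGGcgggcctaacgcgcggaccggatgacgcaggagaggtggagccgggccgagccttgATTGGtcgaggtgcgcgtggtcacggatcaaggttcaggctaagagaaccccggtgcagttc

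The Hmgcs1 window holds the SRE as TCACCCCAC, beginning 137 bases before the start site, with 4 CCAAT boxes. The Mylip and Hsd17b7 windows hold 3 CCAAT boxes each and no match to these SRE letters. RefSeq windows were matched for 23 of the 27 members. The 4 without a window were Fdps, Fdft1, Sqle and Stard4, so whether they hold these motifs is not known here. The SRE letters, searched on both strands, occur in 1 of the 23, against 1.34% of 9698 tested genes with a window. A CCAAT box occurs in 20 of the 23 (87.0%), against 43.1% of those tested genes. The GC box GGGCGG occurs in 21 of the 23, against 69.0%, and the E-box CACGTG in 5 of the 23, against 11.9%. None of the capital stretches in the 3 printed windows overlaps another. A match is a description of letters and shows no binding.

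**Figure D1:**
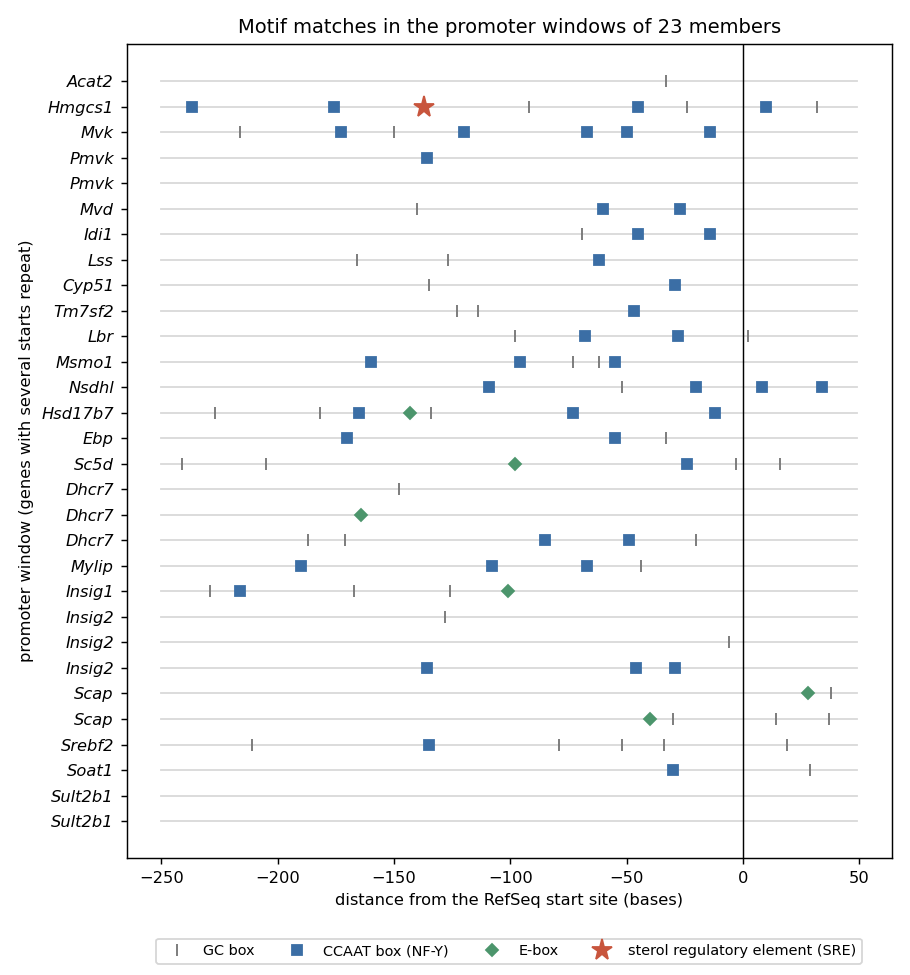
Matches to 4 motifs in the RefSeq promoter windows of 23 members, by distance from the start site in bases, with 1 line per window in pathway order (genes with several start sites have several lines). The SRE letters appear once, 137 bases before the Hmgcs1 start site, while CCAAT boxes appear in 20 of the 23 genes.

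Values are FPKM, fragments scaled to the length of the transcript and to the mapped fragments of the library, which allow levels of different genes to be compared per length. Genes with at least 1 FPKM in at least 3 libraries were tested with limma on log2(FPKM + 1), and a log2 change is Znf750_cKO minus control on that scale. "Rose" and "fell" mean a Benjamini-Hochberg adjusted p under 0.05 over all 13688 tested genes. The targeted gene Zfp750 read 44.8, 32.0 and 34.9 FPKM in control replicates 1, 2 and 3, against 0.99, 0.83 and 1.47 in Znf750_cKO replicates 1, 2 and 3. Between 24045 and 29087 genes were listed above 0 per library. The keratinocyte keratins Krt5, Krt14, Krt1 and Krt10 were each at 5073 FPKM or more in every library. Of 12 leukocyte markers, 9 were tested and all 9 fell, and the summed level of the 12 was 123 to 201 FPKM in the controls and 18.4 to 27.2 in Znf750_cKO. With the replicate number as a block 8 of the 9 passed, without Fcer1g (limma adjusted p = 0.043 unblocked, 0.090 blocked). Lyz2, among the 9, reached 1 FPKM only in the controls and entered the test through that group alone. Its fall is therefore not read as a result. The untested markers, Cd207, Cd3e and Trdc, had overlapping groups. Of 9 sebocyte markers, 3 were tested and Krt79 fell. Their sum, mostly Krt79, was 247 to 429 FPKM in the controls and 128 to 152 in Znf750_cKO, with Plin5 at 0 throughout. Of 10 genes of dissociation stress, 0 changed in limma (1 had an unadjusted p under 0.05), with sums of 423 to 764 and 670 to 1711 FPKM. All 10 log2 changes were positive (median 0.77), and 3 of the 10 lay higher in Znf750_cKO without overlap (30%, background 8.28%). With the block Fos passed upwards (log2 change 1.32, limma adjusted p = 0.32 unblocked, 0.035 blocked). Of 7 basal keratinocyte markers Itgb4 rose, and with the block Itga6 and Col17a1 passed upwards too (blocked limma adjusted p = 0.044 and 0.048). Of 9 spinous and granular markers Ivl rose, a call that the block ended (limma adjusted p = 0.022 unblocked, 0.058 blocked), and 0 of 3 tested fibroblast, 6 melanocyte and 1 tested adipocyte markers changed. The part of any of these in the values below was not tested, and in bulk RNA fewer cells of a type and less RNA per cell cannot be told apart.

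All 27 members passed the filter, 26 of them with at least 1 FPKM in every library. Hmgcs1 and Mylip rose, Hsd17b7 fell and 24 did not pass. Over all tested genes 4.22% changed, 1.11% upwards and 3.10% downwards, against 2 (7.41%) and 1 (3.70%) of the 27 members. The split over all genes, 152 rose and 425 fell, became 248 and 265 under median-ratio scaling. An unadjusted p under 0.05 was found in 6 members, 4 higher and 2 lower, beside 21.3% of all tested genes (5.94% higher and 15.3% lower). The members' log2 changes were 14 positive and 13 negative with a median of 0.00, beside a median of -0.08 over all tested genes. Groups did not overlap with Znf750_cKO higher in 4 members (14.8%, background 8.28%), namely Hmgcs1, Sc5d, Mylip and Srebf2. They did not overlap with Znf750_cKO lower in 3 members (11.1%, background 19.7%), namely Hsd17b7, Dhcr7 and Stard4. The median standard error of a log2 change was 0.154 for the members and 0.155 over all tested genes. The 95% interval of the log2 change lay between a halving and a doubling for 26 members and reached past a halving for Soat1.

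**Figure D2:**
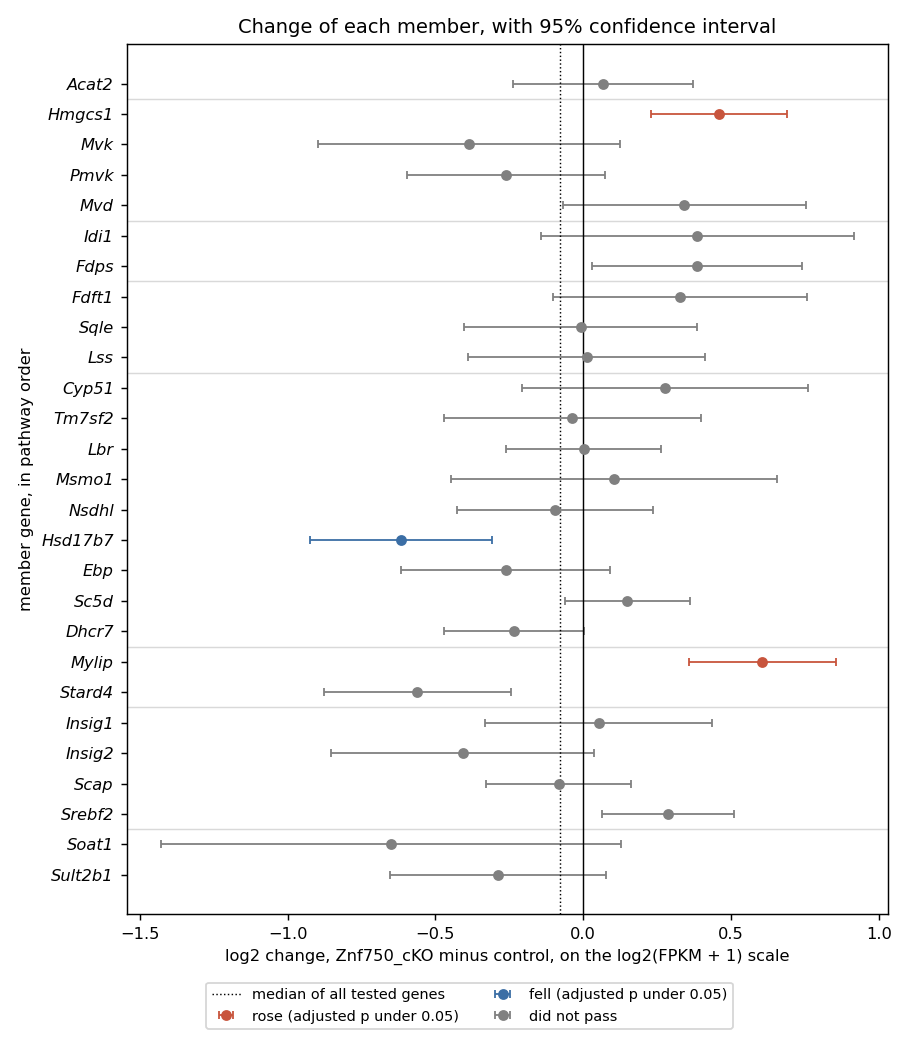
Log2 change of each member (horizontal axis, Znf750_cKO minus control on the log2(FPKM + 1) scale, n = 3 per group) in pathway order, with points for the estimate and bars for the unadjusted 95% confidence interval from limma. Hmgcs1 and Mylip rose, Hsd17b7 fell, and the other 24 members did not pass the adjusted threshold.

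The route opens with the cytosolic thiolase Acat2, which joins acetyl-CoA units. Acat2 measured 15.3, 18.8 and 16.0 FPKM in control replicates 1, 2 and 3 and 15.1, 18.7 and 18.9 in Znf750_cKO replicates 1, 2 and 3. The groups overlapped (log2 change 0.07, 95% interval -0.24 to 0.37). Hmgcs1, the HMG-CoA synthase of the next step (ENSMUSG00000093930, chromosome 13, 119690379 to 119708260, plus strand, GRCm38), was the most abundant member in both groups. Its level was 79.6, 84.1 and 73.1 FPKM in the controls and 105, 106 and 115 in Znf750_cKO, so that every Znf750_cKO library lay above every control library. The group means were 78.9 ± 5.55 and 109 ± 5.56 FPKM (± SD over 3 libraries each, as below), so Hmgcs1 rose 1.38-fold (log2 change 0.46 with SE 0.10, limma adjusted p = 0.045). With the replicate number as a block the adjusted p was 0.069, and with any 1 library left out it was 0.080 to 0.14, so it passed in 0 of these 6 fits. It passed under 2 of 4 other scalings (0.039 to 0.062). An exon of the antisense gene Gm48342 overlaps Hmgcs1, and without a stated strand their reads cannot be told apart.

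None of the 3 enzymes that phosphorylate and decarboxylate mevalonate passed. Mevalonate kinase, Mvk, was at 29.1, 42.5 and 41.1 FPKM in the controls and 25.6, 37.9 and 22.9 in Znf750_cKO (log2 change -0.39, 95% interval -0.90 to 0.12). Phosphomevalonate kinase, Pmvk, went from 20.0 ± 3.21 to 16.4 ± 2.01 FPKM (log2 change -0.26, 95% interval -0.60 to 0.07). The decarboxylase Mvd went from 9.03 ± 1.96 to 11.6 ± 1.78 FPKM (log2 change 0.34, 95% interval -0.07 to 0.75). All 3 had overlapping groups, and their limma adjusted p ran from 0.32 to 0.37. The control replicate 1 library was the lowest control for Mvk and Mvd.

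The isoprenoid steps follow, in which Idi1 isomerises isopentenyl diphosphate and Fdps joins the units to farnesyl diphosphate, the branch point towards sterols, dolichol, ubiquinone and protein prenylation. Idi1 was at 16.2, 20.8 and 17.1 FPKM in the controls and 16.3, 27.7 and 29.6 in Znf750_cKO. Replicates 2 and 3 of Znf750_cKO were above all controls and its replicate 1 was not (log2 change 0.39, 95% interval -0.14 to 0.91, limma adjusted p = 0.38). Fdps was at 34.9, 47.9 and 43.9 FPKM in the controls and 46.6, 62.6 and 57.1 in Znf750_cKO, with the groups overlapping through 1 library on each side. Its log2 change was 0.39 (SE 0.15, limma adjusted p = 0.20, and 0.062 with the replicate block). Summed over both genes the level was 51.1, 68.7 and 61.0 FPKM in the controls and 62.8, 90.4 and 86.7 in Znf750_cKO, which also overlapped.

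Squalene is made by Fdft1, oxidised by Sqle and closed to lanosterol by Lss. Fdft1 was at 15.0, 22.2 and 15.0 FPKM in the controls and 18.0, 22.2 and 25.6 in Znf750_cKO (log2 change 0.33, 95% interval -0.10 to 0.76). Sqle, the most abundant of these 3, was at 18.3, 26.5 and 21.7 FPKM in the controls and 17.7, 23.9 and 24.3 in Znf750_cKO (log2 change -0.01, 95% interval -0.40 to 0.39). Lss was among the least abundant enzymes, at 6.74 ± 0.92 and 6.85 ± 1.46 FPKM. None of the 3 passed, and the sign of Sqle turned positive under each of 4 other scalings. Fdft1 shares exon sequence on the opposite strand with Ctsb, and its reads are not separated from those of that gene.

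Of the 9 genes of ring processing, 1 fell and 8 did not pass. Cyp51, the lanosterol demethylase, went from 11.6 ± 1.17 to 14.6 ± 4.62 FPKM, with Znf750_cKO replicate 3 at 19.5 and the other libraries between 10.3 and 14.0. The sterol reductases Tm7sf2 and Lbr, the latter also a protein of the inner nuclear membrane, had log2 changes of -0.04 and 0.00, Tm7sf2 positive under median-ratio scaling and quantile normalization. Lbr was at 26.4 ± 3.22 FPKM in the controls and 26.3 ± 1.23 in Znf750_cKO.

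Msmo1, Nsdhl and Hsd17b7 act together on the methyl groups of the ring, as oxidase, decarboxylating dehydrogenase and ketone reductase. Hsd17b7 (ENSMUSG00000026675, chromosome 1, 169949535 to 169969241, minus strand, GRCm38) was at 14.9, 16.2 and 13.9 FPKM in the controls and 8.79, 11.1 and 8.51 in Znf750_cKO, with no overlap. Hsd17b7 fell 1.58-fold, with group means of 15.0 ± 1.14 and 9.47 ± 1.43 FPKM (log2 change -0.62 with SE 0.13, limma adjusted p = 0.045, and 0.046 with the replicate block). The enzymes beside it did not pass. Msmo1 was at 17.2, 30.9 and 21.8 FPKM in the controls and 19.1, 26.3 and 28.8 in Znf750_cKO (log2 change 0.10, 95% interval -0.45 to 0.65). Nsdhl was at 6.54 ± 0.16 and 6.10 ± 1.02 FPKM (log2 change -0.10, 95% interval -0.43 to 0.24, positive under quantile normalization). The Hsd17b7 call held in 1 of 6 fits that leave out a library, the one without Znf750_cKO replicate 2 (limma adjusted p 0.040 to 0.16), and in 0 of 4 other scalings (0.05003 to 0.12).

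The last steps are the isomerase Ebp, the desaturase Sc5d and the reductase Dhcr7. Ebp, the most abundant gene of ring processing, was at 28.2, 43.0 and 37.8 FPKM in the controls and 31.0, 29.9 and 28.3 in Znf750_cKO (log2 change -0.26, 95% interval -0.62 to 0.09). Sc5d was at 22.8, 23.8 and 22.2 FPKM in the controls and 25.3, 26.1 and 25.2 in Znf750_cKO, so that the groups lay close without overlap (log2 change 0.15, limma adjusted p = 0.40). Dhcr7 was at 25.7, 27.7 and 23.7 FPKM in the controls and 22.6, 21.4 and 21.0 in Znf750_cKO, again without overlap (log2 change -0.24, limma adjusted p = 0.24). These neighbours at the end of the route had opposite signs, and neither passed.

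Along the whole route, log2 changes were positive in 6 of the 9 enzymes from Acat2 to Sqle (median 0.33) and in 5 of the 10 from Lss to Dhcr7 (median -0.02). The difference between these stretches was not tested. Among the 19 enzymes, levels ran in control from Hmgcs1 at 78.9 FPKM, through Fdps, Mvk and Ebp, which lay between 36.3 and 42.2 and apart by less than their SDs, down to Lss and Nsdhl at 6.74 and 6.54. Summed over the 19 enzymes the level was 403, 500 and 439 FPKM in the controls and 435, 507 and 506 in Znf750_cKO, and the groups overlapped.

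**Figure D3:**
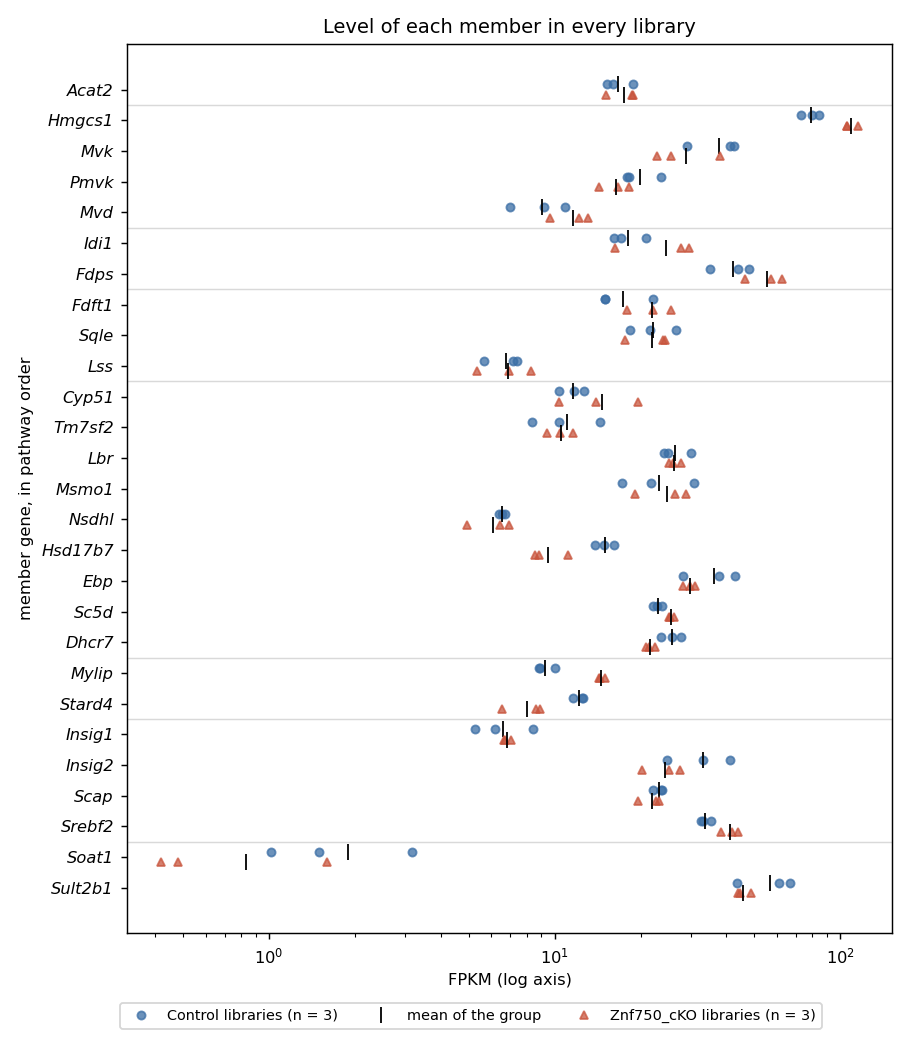
FPKM of the 27 members in every library on a log axis, in pathway order, with circles for the 3 control libraries, triangles for the 3 Znf750_cKO libraries and black ticks for group means. Hmgcs1 is the highest member and Soat1 the lowest, and the groups stand clear of each other in 7 members. Of these, 4 are higher in Znf750_cKO (14.8%, background 8.28%) and 3 lower (11.1%, background 19.7%).

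Among genes of uptake and transport, Mylip rose. It encodes a ubiquitin ligase that marks lipoprotein receptors for degradation and is a known target of the liver X receptors, nuclear receptors that sense oxysterols. Mylip (ENSMUSG00000038175, chromosome 13, 45389742 to 45412022, plus strand, GRCm38) was at 10.0, 8.81 and 8.91 FPKM in the controls and 15.0, 14.3 and 14.4 in Znf750_cKO. The lowest Znf750_cKO library exceeded the highest control by more than the whole spread of either group. Mylip rose 1.58-fold, with group means of 9.25 ± 0.68 and 14.6 ± 0.40 FPKM (log2 change 0.61 with SE 0.11, limma adjusted p = 0.025, and 0.044 with the replicate block). It passed under each of 4 other scalings (0.019 to 0.047) and in 0 of 6 fits that leave out a library (0.053 to 0.11), with a log2 change between 0.58 and 0.66 in those 6.

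Stard4, a cytosolic carrier that moves cholesterol between membranes and is a known target of the Srebf2 factor, was lower without passing. It was at 12.5, 12.6 and 11.6 FPKM in the controls and 6.55, 8.61 and 8.89 in Znf750_cKO, with no overlap. Its log2 change was -0.56 (SE 0.14, limma adjusted p = 0.064, and 0.060 to 0.22 over 17 alternatives). Stard4 therefore had the third lowest log2 change of the 27 members, behind Soat1 and Hsd17b7.

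The 4 genes of sterol control differed in level and in direction. Srebf2 was at 35.3, 33.0 and 32.7 FPKM in the controls and 38.2, 41.8 and 43.9 in Znf750_cKO, non-overlapping groups whose log2 change was 0.29 (SE 0.10, limma adjusted p = 0.14). Scap was at 23.2 ± 0.96 FPKM in the controls and 21.9 ± 1.94 in Znf750_cKO (log2 change -0.08, 95% interval -0.33 to 0.16, and 0.02 under median-ratio scaling). Of the Insig transcripts, Insig2 was the more abundant in each library, at 33.1, 41.0 and 24.9 FPKM in the controls and 25.1, 20.2 and 27.6 in Znf750_cKO (log2 change -0.41, 95% interval -0.85 to 0.04). Insig1, itself a target of the Srebf2 factor, was at 6.18, 8.43 and 5.26 FPKM in the controls and 7.01, 6.72 and 6.64 in Znf750_cKO (log2 change 0.05, 95% interval -0.33 to 0.44). None of the 4 passed.

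Soat1 attaches fatty acids to cholesterol for storage, and Sult2b1 makes cholesterol sulfate. Soat1 was the least abundant member, at 3.16, 1.5 and 1.02 FPKM in the controls and 0.48, 0.42 and 1.59 in Znf750_cKO. Its group means of 1.89 and 0.83 FPKM gave the lowest log2 change of the members, -0.65, with the widest interval (-1.43 to 0.13, limma adjusted p = 0.32), and Znf750_cKO replicate 3 lay above 2 of the controls. The summed leukocyte and sebocyte markers above were also lower in Znf750_cKO. Control replicate 1 was the highest library for Soat1 and for both marker sums, the sebocyte sum through Krt79 (414 of 429 FPKM in that library). The other tested sebocyte markers, Awat1 and Far2, were highest in control replicate 2 (4.76 and 8.99 FPKM). The melanocyte sum was also highest in control replicate 1 (142 FPKM). The part of any of these cells in the Soat1 values was not tested. Sult2b1 was the second most abundant member in control, at 43.5, 66.6 and 61.1 FPKM, and was at 44.8, 48.7 and 44.1 in Znf750_cKO (log2 change -0.29, 95% interval -0.65 to 0.08). The groups overlapped through control replicate 1.

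Taken as a set, the members spread more within the groups than their median differed between them. Control replicate 2 was the highest of the 6 libraries in 12 members and Znf750_cKO replicate 3 in 8, while control replicate 1 was the lowest in 9. The median deviation of the 27 members from their mean over 6 libraries was -0.15, 0.13 and -0.08 on the log2 scale in control replicates 1, 2 and 3, and -0.10, 0.03 and 0.12 in Znf750_cKO replicates 1, 2 and 3. Over all tested genes the same medians lay between -0.07 and 0.06. With 1 library left out the median log2 change of the members ran from -0.09 to 0.05. Positive changes numbered 11 without Znf750_cKO replicate 3 and 16 without Znf750_cKO replicate 1.

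**Figure D4:**
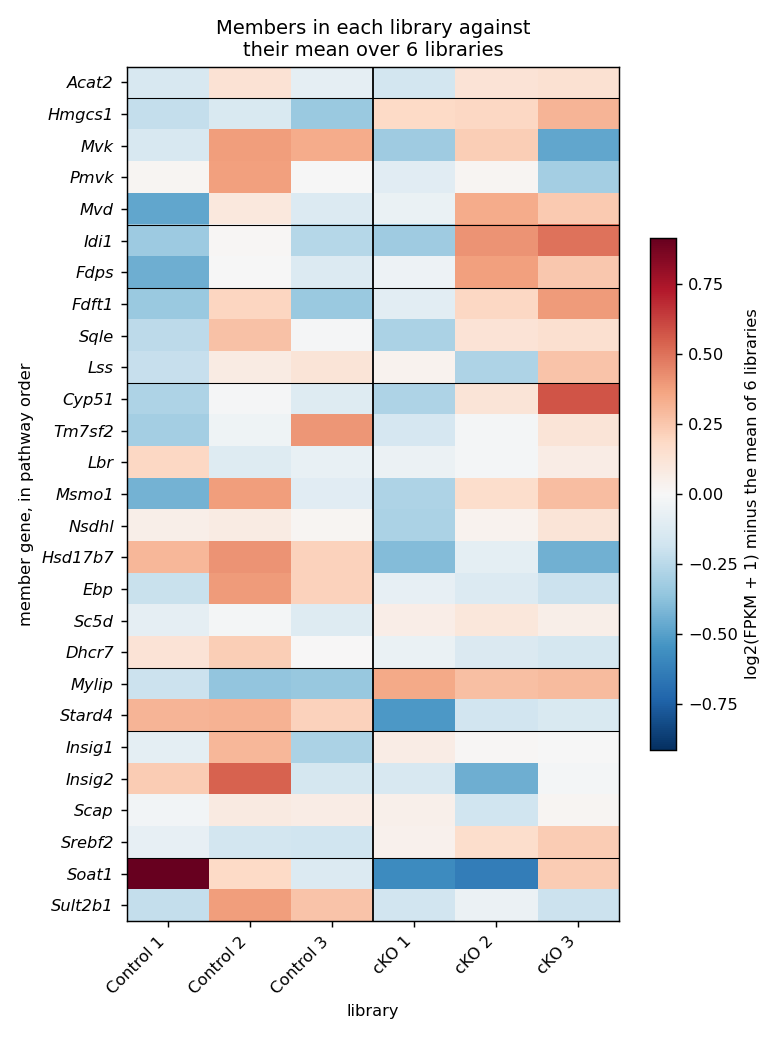
Each member (rows, in pathway order) in each library (columns, 3 control left of the line and 3 Znf750_cKO right of it), coloured by log2(FPKM + 1) minus its mean over the 6 libraries. Hmgcs1 and Mylip are higher and Hsd17b7 and Stard4 lower in all 3 Znf750_cKO libraries, and control replicate 2 is the highest library in 12 members.

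Beyond the 27 members, 6 lists of genes around the pathway held 1 gene that changed. Of 14 tested genes of the oxysterol response, efflux and sterol transport, Stard5 fell (7.14%, background 3.10%) and 13 did not pass. An unadjusted p under 0.05 was found in 5 of the 14, 1 higher and 4 lower, beside 5.94% and 15.3% of all tested genes. The 1 higher was Abcg4, which reached 1 FPKM only in Znf750_cKO. Because it entered the test through that group alone, its p-value is not read as a result. Stard5, a sterol-binding protein of the same family as Stard4, was at 23.5, 22.7 and 22.8 FPKM in the controls and 15.1, 18.0 and 14.1 in Znf750_cKO. Its group means were 22.97 ± 0.41 and 15.7 ± 1.99 FPKM (log2 change -0.52 with SE 0.12, limma adjusted p = 0.048, and 0.062 with the replicate block). It passed in 1 of 6 fits that leave out a library (0.042 to 0.17) and in 0 of 4 other scalings (0.062 to 0.15).

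The other 5 lists had 0 genes past limma, and the most abundant gene of each over the 6 libraries is named. Of 9 genes of SREBP processing and sterol-dependent degradation 2 had an unadjusted p under 0.05, near the 21.3% of all tested genes. In the controls alone Mbtps1, a protease of that cleavage, was above Srebf1 (34.9 ± 5.40 FPKM). Srebf1, the paralog of Srebf2 that favours fatty acid synthesis, was at 32.8 ± 3.86 and 41.2 ± 3.41 FPKM (log2 change 0.32, limma adjusted p = 0.17). Of 11 genes that branch from farnesyl diphosphate 0 had an unadjusted p under 0.05, and the prenyltransferase subunit Fnta was at 60.3 ± 0.88 and 54.7 ± 5.70 FPKM. These lists lie around the sterol route and had medians of 0.06 and -0.05.

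Of 13 tested genes that supply acetyl-CoA and NADPH or make fatty acids, 6 had an unadjusted p under 0.05, 1 of them higher and 5 lower, beside 5.94% and 15.3% of all tested genes, and the median was -0.12 beside -0.08. Acly, which splits citrate to acetyl-CoA in the cytosol, was at 52.2 ± 0.66 and 51.6 ± 3.45 FPKM (log2 change -0.02, 95% interval -0.24 to 0.19). Of 5 tested genes of sulfate donor supply and 7 of electron supply to sterol oxidation, 0 had an unadjusted p under 0.05. Papss1, which makes the sulfate donor, was at 44.5 ± 3.12 and 44.4 ± 4.98 FPKM, and the electron carrier Cyb5a at 154 ± 6.47 and 155 ± 21.3.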

How the data were processed

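RNA of epidermal cells was measured in 3 control and 3 Znf750_cKO libraries by poly(A)-selected RNA-seq with 100-nucleotide single reads, per the labels' protocols. The authors deposited 1 FPKM value per Ensembl gene and library, per the file headers. STAR 2.5.2a, RSEM 1.2.28, DESeq2, cutadapt 1.15 and Trim Galore 0.4.5 are named without a role, with GRCm38 and mm10, per the submitters' processing notes. The annotation release, strand and read depth were not given in the sources used here.

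Genes with at least 1 FPKM in at least 3 libraries (13688) were fitted on log2(FPKM + 1) with limma 3.58.1 (trend, robust variances, R 4.3.3), with group as the only term, after the fit was tested on simulated data. Symbols matched 55141 of 55487 identifiers. Positions come from GENCODE M21 on GRCm38. At exons, 8 members overlap a gene on the opposite strand and 3 a gene on the same strand. Plots were drawn with matplotlib 3.10.9.

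Each member is named, in pathway order. Members that changed, the most abundant of each role and the 3 highest and 3 lowest log2 changes have a value for every library, and so have most others. From each other list the changed genes, or else the most abundant gene, are named. Members and lists were chosen with earlier results of these data known.

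The labels number replicates 1 to 3 in both groups. After group means were taken off, like-numbered libraries correlated across genes at 0.31, 0.17 and 0.48. Each was above 0.1, so the numbers were treated as pairs in a second, blocked fit. Control replicate 1 also correlated with Znf750_cKO replicate 2 at 0.24, above the like-numbered value of 0.17. The other unlike-numbered pairs ran from -0.39 to -0.04. A pairing is therefore not established by these values. What a number stands for is not stated in the labels. Alternatives were 2 pseudocounts, 2 filters, 4 scalings, another variance model, the block and libraries left out.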

Additional observations from a re-analysis of the deposited data

How the results depend on the processing

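Of the members 2 rose and 1 fell, and the 3 calls kept their direction in each of 17 alternatives, while 0 of the other 24 members passed in any. Members that rose and fell numbered 0 and 0 without a level filter, without replicate 3 of both groups and with any 1 library left out, except that Hsd17b7 fell without Znf750_cKO replicate 2. They numbered 2 and 0 under TPM and median-ratio scaling, 1 and 0 under upper-quartile scaling, quantile normalization and plain variances, and 1 and 1 with the replicate block. Over all tested genes, 152 rose and 425 fell, against 31 and 54 without a level filter, 248 and 265 under median-ratio scaling, 201 and 218 under quantile normalization, 136 and 256 with the replicate block, and 95 and 295 without replicate 3 of both groups. With 1 library left out 34 to 110 rose and 66 to 259 fell, fewest without Znf750_cKO replicate 1. Among members and genes of the pathway lists, the block ended the calls of Hmgcs1 and Stard5 (limma adjusted p = 0.069 and 0.062) and no other. Among markers it ended those of Ivl and Fcer1g (0.058 and 0.090) and added Fos, Itga6 and Col17a1 (0.035, 0.044 and 0.048).

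Of the members, 18 kept their sign throughout and 9 that did not pass changed it. Median-ratio scaling moved the median over all genes from -0.08 to 0.02 and that of the members from 0.00 to 0.10. Sqle, at -0.01, was at 0.0041, 0.095, 0.0085 and 0.028 under TPM, median-ratio, upper-quartile and quantile scaling. Tm7sf2 was at 0.063 and 0.061 under median-ratio and quantile scaling, Nsdhl at 0.043 under the latter and Scap at 0.022 under the former. Without replicate 3 of both groups Acat2 was at -0.011, Lss at -0.056, Tm7sf2 at 0.087, Lbr at -0.069, Msmo1 at -0.039 and Insig1 at -0.065. With 1 library left out the log2 change ran from -0.13 to 0.13 for Sqle, -0.12 to 0.15 for Lss, -0.20 to 0.16 for Tm7sf2, -0.059 to 0.095 for Lbr, -0.085 to 0.32 for Msmo1, -0.18 to 0.026 for Nsdhl and -0.079 to 0.22 for Insig1. The cause of these changes was not tested. Read depth is not known from FPKM, so low values such as those of Soat1 are given without a counting interval.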

Other observations

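Several genes of the oxysterol response, efflux and sterol transport list had non-overlapping groups without passing limma, and are given here after their values were seen. Of its 14 tested genes, 2 lay higher without overlap (14.3%, background 8.28%), namely Osbpl2 and Abcg4. Abcg4 entered the test only through its Znf750_cKO values, as described below, so its part in this share is not read as a result. Another 4 lay lower (28.6%, background 19.7%), with Stard5 among them. In the list of acetyl-CoA and NADPH supply and fatty acids these counts were 1 (7.69%) and 6 (46.2%) of 13. The higher gene was Fasn, and the lower genes were Acss2, Me1, Pgd, Scd1, Fads1 and Elovl6. None passed (limma adjusted p of 0.098 or more). Acss2 reached 1 FPKM only in the controls and entered the test through that group alone, so its lack of overlap is not read as a result. Gramd1c, of a family that moves cholesterol from the plasma membrane to the endoplasmic reticulum, was at 42.6, 55.2 and 29.7 FPKM in control replicates 1, 2 and 3 and 19.2, 13.0 and 21.3 in Znf750_cKO replicates 1, 2 and 3 (log2 change -1.19, SE 0.26, limma adjusted p = 0.061). This log2 change is larger in size than that of any of the 27 members. Its relative Gramd1a was at 17.2 ± 1.38 and 16.4 ± 2.04 FPKM, and Gramd1b was below 1 FPKM in every library.

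The sterol exporter gene Abcg4 was at 0.18, 0.30 and 0.47 FPKM in the controls and 1.09, 1.14 and 1.34 in Znf750_cKO (log2 change 0.74, limma adjusted p = 0.064). It reached 1 FPKM only in the 3 Znf750_cKO libraries, and so entered the test through that group alone. Its log2 change, p-value and lack of overlap are therefore not read as a result. Abcg1, the related exporter gene, was at 1.70 ± 0.33 and 3.06 ± 1.54 FPKM with overlapping groups (limma adjusted p = 0.35). Both are known targets of the liver X receptors, as Mylip is, and neither passed. The part of these receptors in any of the values was not tested. Of the receptors themselves, Nr1h2 was at 44.0 ± 6.26 and 43.1 ± 2.87 FPKM and Nr1h3 was below 0.5 FPKM in every library.

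Hsd3b7, an enzyme of oxysterol breakdown, was at 4.63, 4.20 and 4.72 FPKM in the controls and 2.65, 3.17 and 1.89 in Znf750_cKO (log2 change -0.64, limma adjusted p = 0.084). The lysosomal cholesteryl ester hydrolase gene Lipa was at 4.49, 2.58 and 3.09 FPKM in the controls and 2.36, 1.86 and 1.38 in Znf750_cKO (log2 change -0.60, limma adjusted p = 0.16). The leukocyte marker sum was also lower in Znf750_cKO (18.4 to 27.2 against 123 to 201 FPKM), and its part in these values was not tested.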
